A study of Mus musculus with 8 samples.

Results

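The genes described are 74 genes named for families of splicing and RNA-binding proteins, measured in the hippocampus of male mice. They are every gene on the array whose platform symbol begins with Hnrnp, with Srsf, Rbm or Sf3a/Sf3b followed by its number, or is Rsrp1. The 74 genes are 19 hnRNP genes, 10 SR protein genes, 35 RBM genes, 9 SF3 genes and Rsrp1, out of 19505 gene symbols on the array. Where several rows carried 1 symbol, the row with the highest mean over the 8 arrays was used. Dams were given vehicle or clothianidin, an insecticide of the neonicotinoid class, which bind nicotinic receptors for acetylcholine, by mouth on postnatal days 1 to 4, and hippocampal RNA of the male young was taken at 3 or 10 weeks of age. The dose was 65 mg/kg/day, which the submitters class as a no-observed-adverse-effect level. The 4 groups, vehicle at 3 weeks, clothianidin at 3 weeks, vehicle at 10 weeks and clothianidin at 10 weeks, had 2 arrays each. The labels name no strain, litter or pooling, and they do not say that the arrays of a group came from separate animals, so the p-values measure only the spread between these arrays, which may be technical.

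Most introns are removed by the spliceosome, a machine of small nuclear RNAs and many proteins. SF3a and SF3b are parts of the U2 particle, which recognises the branch site of an intron. SR proteins carry a domain of arginine and serine repeats and usually favour the use of the exons they bind, whereas hnRNP proteins coat nascent transcripts and often repress exons. RBM genes are named only for an RNA recognition motif and are a mixed family, with members in the spliceosome, the exon junction complex, RNA decay and the germ line. Neurons use alternative splicing widely for synaptic proteins and channels.

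Values are log2 intensities as deposited, so a difference of 1 is a factor of 2. Of the 74 genes, 42 lay above the array's upper quartile on all 8 arrays, and 64 never lay below its median. Rbm31y was below the lower quartile on 8 arrays, Rbm46os on 6, and Rbm44, Rbm46 and Rbm47 on 5 each, so differences of these 5 genes sit near the array's floor. The median standard deviation within a group was 0.33 (log2) over the 74 genes and 0.30 over all 22206 clusters. A cluster is the group of probes that the array reports as 1 row. Rbm4 had 4 rows, with mean levels of 10.72 (the row used), 6.93, 5.74 and 4.46, and they disagreed on age: 0.71, 0.78, 0.29 and -0.63. Rbm4 and Rbm4b differed by at most 0.46 on any array, and Rbm12b1 and Rbm12b2 by at most 0.5. Each is a pair of similar neighbouring genes, so which copy gave the signal is uncertain. The same holds for the pseudogene Hnrnpa1l2-ps2, a copy of the Hnrnpa1 sequence. Rbm46os, counted among the 35 RBM genes for its symbol, is an RNA from the strand opposite Rbm46 and not a gene of an RNA-binding protein.

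The array medians lay between 5.73 and 5.86. The first 3-week vehicle array, titled 3wk Ctrl-1, had a narrower spread of values (SD 3.14) than the other 7 (3.26 to 3.39). Its 5 dentate granule cell markers had a mean of 7.02 against 7.93 to 8.86 elsewhere. It also had the lowest mean of the CA1 markers (10.07 against 10.43 to 11.12) and the CA3 markers (8.16 against 8.6 to 9.2). The same held for the astrocyte, microglia and endothelium markers, but not for the other lists. The 7 neuronal markers had means of 15.65 to 15.87 on all arrays, and no marker of the CA1, CA3 or dentate lists fell below the lower quartile. The 9 measured choroid plexus markers stood at means of 9.57 to 10.04 on 3 arrays (the second vehicle and the first clothianidin array at 3 weeks, and the first clothianidin array at 10 weeks) and 5.01 to 5.66 on the other 5. Ttr, the main transcript of choroid plexus, was 18.25 to 19.16 on those 3 arrays and 5.24 to 7.37 on the others. All 5 measured oligodendrocyte markers fell with age, from -1.14 for Mbp to -2.17 for Mag. The array means were 6.64 on each 3-week array and 6.69 to 6.70 on each 10-week array. Whether the ages were normalized together is not stated, so age and processing run cannot be told apart.

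The families did not share a profile over the arrays. On the first 3-week vehicle array the median gene of the hnRNP family lay 0.39 below its own mean over the 8 arrays, that of the SR proteins 0.45 below and that of SF3 0.31 below, but that of the RBM family only 0.07 below. This array held the lowest value of 10 of 19 hnRNP genes, 4 of 10 SR genes, 4 of 9 SF3 genes and 4 of 35 RBM genes. Of all clusters, 21.3% were lowest there, and of clusters in the upper quartile of mean level, 38.5%. The SR proteins also moved between arrays of 1 group: at 10 weeks their median deviation was 0.31 and -0.28 on the vehicle arrays and 0.46 and 0.04 on the clothianidin arrays.

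**Figure D1:**
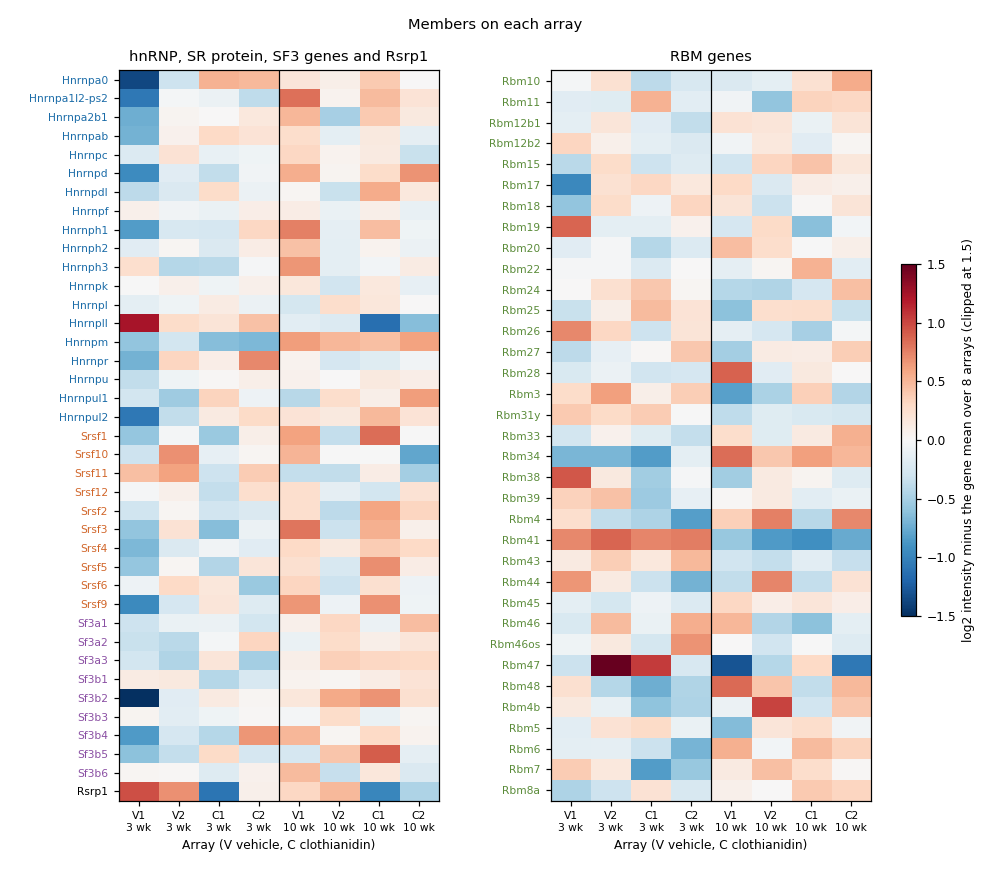
Heat map of all 74 genes on the 8 arrays (columns V1, V2 vehicle and C1, C2 clothianidin at each age); colour is log2 intensity minus the gene's mean over the arrays, clipped at 1.5. The first column holds the lowest value of 22 genes, mostly hnRNP, SR and SF3 genes, while Rsrp1 in the bottom row of the left panel is lower in clothianidin than in vehicle columns at each age.

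**Figure D2:**
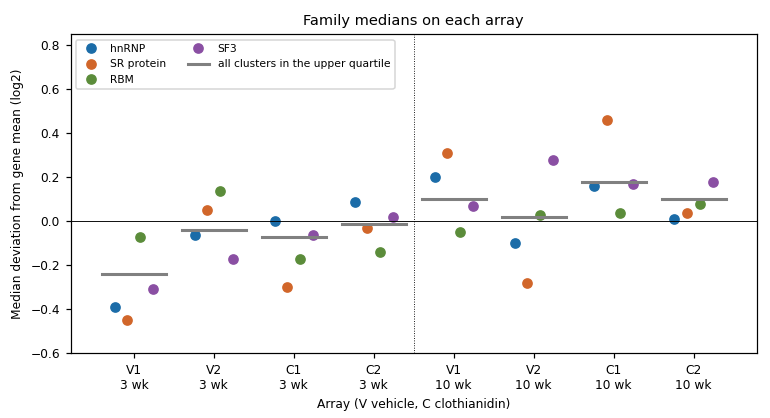
Median deviation of each family (points) and of all clusters in the upper quartile of level (grey bars) from the genes' own means, on each array (x axis; V vehicle, C clothianidin; y axis log2). On the first 3-week vehicle array the hnRNP median is -0.39, the SR median -0.45, the SF3 median -0.31 and the RBM median -0.07, beside -0.24 for the bright clusters.

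The first question of the design is whether neonatal exposure left a difference at 3 weeks. By limma's moderated test with Benjamini-Hochberg adjustment over all clusters, 0 of 74 genes passed an adjusted p under 0.05, and 0% of all clusters did. The same count and the same 0% were found at 10 weeks, for the mean of both ages and for the difference between the ages, so no family can be said to have risen or fallen with exposure. At an unadjusted p under 0.05 there were 8 genes at 3 weeks (10.8% of the 74, against 5.9% of all clusters), 1 at 10 weeks (3.69% of all clusters), 8 for the mean effect (10.8%, against 6.17%) and 2 for the difference between ages (3.13% of all clusters). In bulk tissue, fewer cells of a type and less RNA per cell cannot be told apart.

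Rsrp1, which encodes a protein rich in arginine and serine, had the largest difference of the 74 genes at 10 weeks and over both ages. Its values were 9.55 and 9.27 in vehicle and 7.49 and 8.66 in clothianidin mice at 3 weeks. At 10 weeks they were 8.89 and 9.07 in vehicle and 7.60 and 8.12 in clothianidin mice. All 4 clothianidin arrays were below all 4 vehicle arrays. The difference was -1.33 ± 0.37 (SE, n = 2 and 2) at 3 weeks and -1.12 ± 0.37 at 10 weeks, and their mean was -1.23 ± 0.26, which did not pass (limma adjusted p = 0.774). The 2 differences were themselves 0.21 ± 0.53 apart, within the error. The 3-week difference was -1.20 without the first 3-week vehicle array. The lowest Rsrp1 value of each age was on an array with high choroid plexus markers, and without the 3 such arrays, an alternative chosen after seeing the data, the differences were -0.89 and -0.86. The part of choroid plexus tissue in these differences was not tested. No other gene of the 74 was below an unadjusted p of 0.05 at 10 weeks.

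The 250 bases before the start of Rsrp1 are shown because it is the gene with the largest difference in both age groups together. The window comes from RefSeq on GRCm38.p6, chr4:134923375-134923624, plus strand, and capitals mark matches to the 7 short promoter motifs searched on both strands: TATAAA for the TATA box, CCAAT for the box of that name, GGGCGG for the GC box, CCGGAAG for the ETS motif, TGACGTC for the CRE core, CACGTG for the E-box and TTCCCGC for the E2F motif. None of these contains another.
Rsrp1: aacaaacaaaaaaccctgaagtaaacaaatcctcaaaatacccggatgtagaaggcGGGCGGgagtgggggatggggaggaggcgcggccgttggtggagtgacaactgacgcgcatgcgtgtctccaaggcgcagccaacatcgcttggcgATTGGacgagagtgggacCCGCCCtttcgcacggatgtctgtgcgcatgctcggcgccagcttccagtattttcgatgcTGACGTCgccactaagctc
It holds GC boxes 194 and 80 bases before the start, a CCAAT box 98 before and a CRE core 19 before. GC boxes were found in 32.7% of all 32851 promoter windows of this length, CCAAT boxes in 33.8% and CRE cores in 2.78%. A match is only a description of the letters.

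Of 19 hnRNP genes, 13 had differences above 0 at 3 weeks, with a median of 0.32, while of clusters at or above the median level 56.9% were above 0, with a median of 0.06. Hnrnpa0, a relative of hnRNP A1 that binds AU-rich messages, was 9.68 and 10.73 in vehicle and 11.56 and 11.53 in clothianidin mice at 3 weeks, and 11.05 to 11.44 on all 4 arrays at 10 weeks. The 3-week groups did not overlap, and the first vehicle array was the lowest of all. Its difference was 1.34 ± 0.34 at 3 weeks (limma adjusted p = 0.846), and 0.81 without that array. Hnrnpul2, a relative of Hnrnpu, was 11.59 and 12.30 in vehicle and 12.80 and 12.95 in clothianidin mice at 3 weeks, a difference of 0.93 ± 0.30 that was 0.57 without that array. The family median dropped to 0.07 without it, with 13 of 19 still above 0. At 10 weeks the family had 9 differences above and 10 below 0, with a median of -0.01 that was 0.13 without the first vehicle array of that age and -0.15 without the second.

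Hnrnpdl and Hnrnpu were higher on both clothianidin arrays than on both vehicle arrays at each age. Hnrnpdl, a relative of the AU-rich element binding protein Hnrnpd, was 11.47 and 11.65 in vehicle and 12.14 and 11.77 in clothianidin mice at 3 weeks, and 11.89 and 11.53 against 12.42 and 12.02 at 10 weeks. Its mean difference was 0.45 ± 0.20 (limma adjusted p = 0.774). Hnrnpu, which binds nuclear RNA and chromatin, differed by 0.28 ± 0.26 and 0.08 ± 0.26, close to the standard error at 3 weeks and below it at 10 weeks. Hnrnpll, known for repressing exons of Ptprc in lymphocytes, was 9.35 and 9.31 in vehicle and 8.38 and 8.87 in clothianidin mice at 10 weeks, a difference of -0.71 ± 0.34. Its 3-week difference of -0.44 ± 0.34 turned to 0.04 without the first vehicle array, which held its highest value. The abundant Hnrnpk, which binds C-rich RNA, stayed between 17.21 and 17.67 on all arrays.

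The SR proteins had no common direction. At 3 weeks 4 of 10 were above 0 and 6 below, with a median of -0.10, and at 10 weeks 8 were above and 2 below, with a median of 0.10. Without the first 3-week vehicle array the 3-week median was -0.25, with 2 above and 8 below. Without the 3 arrays of high choroid plexus markers it was 0.42, and without the second 3-week vehicle array 0.25. The 10-week median was -0.22 without the second 10-week vehicle array and -0.11 without the first 10-week clothianidin array, each with 4 above and 6 below. The signs of the SR medians thus depend on which arrays are kept. Srsf11, an SR-related factor, was 9.93 and 10.08 in vehicle and 9.16 and 9.85 in clothianidin mice at 3 weeks (difference -0.50 ± 0.32, and -0.08 without the 3 arrays). Srsf9 was 7.41 and 8.11 against 8.55 and 8.17, a difference of 0.60 ± 0.37 that was 0.25 without the first vehicle array. At 10 weeks Srsf2, which acts in early spliceosome assembly, was 10.14 and 9.49 in vehicle and 10.47 and 10.21 in clothianidin mice (0.53 ± 0.30). Srsf10, a splicing repressor when it has lost its phosphates, was 9.33 and 8.82 against 8.82 and 8.05 (-0.64 ± 0.38).

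Of the RBM genes, 13 had differences above 0 and 22 below at 3 weeks, with a median of -0.16. There were 9 above and 26 below without the first 3-week vehicle array (median -0.18). Without the second there were 17 above and 18 below (median -0.04), and without the 3 arrays of high choroid plexus markers 17 and 18 (median -0.02). At 10 weeks 19 were above and 16 below, with a median of 0.04. At 3 weeks both clothianidin arrays were below both vehicle arrays in 14 of 35 (40%) and above in 4 (11.4%). The 14 include Rbm4 with Rbm4b and Rbm12b1 with Rbm12b2, pairs whose signals may not be separate, and Rbm44, which sits near the floor. Of all clusters 17.2% had no overlap in the lower direction at 3 weeks and 17.2% in the higher. The groups were apart at 10 weeks in the lower direction in 2 of 35 (5.71%) and in the higher in 5 (14.3%). The shares of all clusters were then 15.3% and 15.4%. Rbm7, a subunit of the nuclear exosome targeting complex, was 11.18 and 10.96 in vehicle and 9.96 and 10.24 in clothianidin mice at 3 weeks. At 10 weeks Rbm7 was 10.94 and 11.26 against 11.07 and 10.82, with overlapping groups. The 3-week difference was -0.97 ± 0.28 (limma adjusted p = 0.846), and it stayed between -1.11 and -0.83 when any 1 array was left out. Rbm39, a splicing factor and transcriptional coactivator, was 13.22 and 13.32 in vehicle and 12.33 and 12.75 in clothianidin mice at 3 weeks. At 10 weeks it was 12.90 and 13.01 against 12.72 and 12.78, so clothianidin arrays were the lower at both ages. The differences were -0.73 ± 0.27 and -0.21 ± 0.27, and -0.78 at 3 weeks without the first vehicle array. As for Rsrp1, the lowest Rbm39 value of each age was on an array with high choroid plexus markers. Without the 3 such arrays, the 3-week values left were 13.22 in vehicle and 12.75 in clothianidin mice. The part of choroid plexus tissue in the Rbm39 differences was not tested.

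Rbm44, a gene of germ cells, and Rbm38, which binds messages of the p53 pathway, had 3-week differences of -0.92 ± 0.39 and -0.81 ± 0.35. They were -0.66 and -0.42 without the first vehicle array, where both had their highest 3-week value. Rbm17, a factor of 3′ splice site choice, had a 3-week difference of 0.60 ± 0.37 that was 0.00 without that array. Rbm8a, a core subunit of the exon junction complex, was 12.76 and 12.92 in vehicle and 13.44 and 12.98 in clothianidin mice at 3 weeks, and 13.30 and 13.23 against 13.62 and 13.55 at 10 weeks. Its differences were 0.37 ± 0.27 and 0.32 ± 0.27, neither past the threshold. Rbm11, a tissue-restricted splicing regulator, differed by 0.64 ± 0.31 at 10 weeks (7.61 and 7.07 against 8.0 and 7.97). Rbm3, a cold-inducible protein, was 12.20 and 12.54 in vehicle and 13.37 and 12.57 in clothianidin mice at 10 weeks. That difference, 0.60 ± 0.32, rests on 1 array and was 0.20 without the 3 arrays of high choroid plexus markers. Rbm47, an RNA-binding cofactor of cytidine deamination, had its 3 highest values, 6.08, 5.13 and 4.38, on those same 3 arrays, and 2.78 to 3.84 on the others.

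The SF3 genes had 7 differences above and 2 below 0 at 3 weeks, with a median of 0.20, and 5 above and 4 below at 10 weeks, with a median of 0.04 that was -0.05 without the first 10-week vehicle array and -0.09 without the first 10-week clothianidin array. Sf3b2, an SF3b subunit, was 7.94 and 9.43 in vehicle and 9.73 and 9.63 in clothianidin mice at 3 weeks, and 9.77 to 10.27 at 10 weeks. Its difference of 1.00 ± 0.42 at 3 weeks was 0.25 without the first vehicle array. Sf3b1, the SF3b subunit that clamps the branch site, went the other way, 11.30 and 11.32 against 10.75 and 10.93, a difference of -0.47 ± 0.25 that was -0.48 without that array. At 10 weeks Sf3b1 was 11.22 and 11.20 against 11.28 and 11.38. Without the first 3-week vehicle array the SF3 median at 3 weeks was 0.25, with 6 above and 3 below, and without the 3 arrays of high choroid plexus markers it was 0.03.

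**Figure D3:**
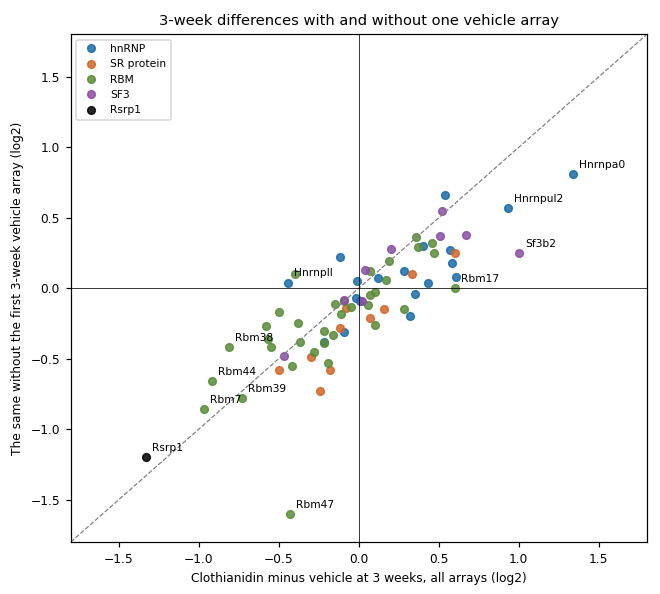
Clothianidin minus vehicle at 3 weeks for each gene (log2), with all arrays on the x axis and without the first 3-week vehicle array on the y axis; the dashed line marks equal values. Sf3b2 drops from 1.00 to 0.25 and Rbm17 from 0.60 to 0.00, while Rsrp1 (-1.33 and -1.20), Rbm7 (-0.97 and -0.86) and Rbm39 (-0.73 and -0.78) lie near the line.

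Counted over all 74 genes, the groups did not overlap in 33 at 3 weeks (44.6%, against 34.4% of all clusters), 15 higher and 18 lower after clothianidin. At 10 weeks they did not overlap in 13 (17.6%, against 30.7%). In 7 genes the arrays were apart in the same direction at both ages (9.46%, against 6.88%). These were Hnrnpdl, Hnrnpu, Rbm11 and Rbm8a, higher after clothianidin, and Rbm20, Rbm39 and Rsrp1, lower. Rbm20, a splicing regulator known from titin in the heart, differed by -0.22 ± 0.26 and -0.32 ± 0.26. Over all 74 genes, 37 differences were above and 37 below 0 at 3 weeks, and 41 and 33 at 10 weeks, with a median of 0.05. At 10 weeks the sign of this median, of the hnRNP median and of the SF3 median changed with the scaling, to -0.02 and -0.04 for all and SF3 after quantile normalization and to 0.02 for hnRNP after median centring. The 3-week counts were 30 above and 44 below without the first 3-week vehicle array, with a median of -0.09.

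**Figure D4:**
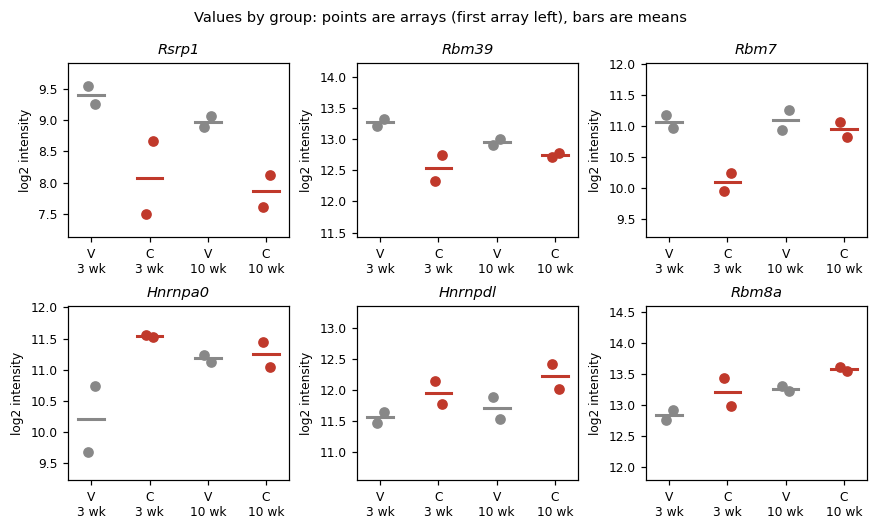
Log2 intensity (y axis, the same span in every panel) of 6 genes in the 4 groups (x axis; V vehicle in grey, C clothianidin in red); points are the 2 arrays and bars their mean. Rsrp1, Rbm39, Hnrnpdl and Rbm8a have non-overlapping arrays at both ages, whereas Rbm7 and Hnrnpa0 do so at 3 weeks only.

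The exposure differences at the 2 ages were set against each other in 1 model. The 10-week minus 3-week difference had an unadjusted p under 0.05 in 2 genes, Hnrnpa0 (-1.27 ± 0.49) and Rbm10 (1.00 ± 0.38). Neither passed the limma threshold after adjustment (adjusted p = 0.998 for each). Rbm10, an exon-skipping regulator, was 6.62 and 6.88 in vehicle and 6.26 and 6.41 in clothianidin mice at 3 weeks, and 6.43 and 6.50 against 6.88 and 7.21 at 10 weeks. Its groups were apart at both ages, in opposite directions. Without the first 3-week vehicle array the values were 1.13 for Rbm10 and -0.75 for Hnrnpa0. By family, the exposure difference was lower at 10 than at 3 weeks in 16 of 19 hnRNP genes (median -0.18) and 8 of 9 SF3 genes (median -0.19), and higher in 6 of 10 SR genes (median 0.23) and 21 of 35 RBM genes (median 0.18). Of all clusters 49.7% were higher. The counts moved with the array left out, and the RBM median then ranged from 0.10 to 0.29. Without the first 3-week vehicle array 11 of 19 hnRNP genes were lower (median -0.07), and without the first 10-week vehicle array also 11 (median -0.06). Without the second 10-week vehicle array 5 of 9 SF3 genes were lower (median -0.04), and the SR median was -0.23.

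Age was the only comparison with genes past the threshold. From 3 to 10 weeks, 4 of the 74 genes changed (5.41%, against 11.2% of all clusters), 2 up (6.37% of all clusters rose) and 2 down (4.84% fell). Rbm34 and Hnrnpm rose, and Rbm41 and Hnrnpll fell. At an unadjusted p under 0.05 there were 21 genes, 14 higher and 7 lower, against 29.5% of all clusters. In 13 genes the 4 arrays of each age did not overlap (17.6%, against 19.7%). The count past the threshold depended on the arrays kept, and so did the share of all clusters.

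Rbm41 had the largest age difference of the 74 genes. Its values were 7.26, 7.41, 7.27 and 7.30 at 3 weeks and 5.96, 5.68, 5.61 and 5.78 at 10 weeks, vehicle arrays first. The ages were far apart on every array, and the exposure groups overlapped at each age. The fall was -1.55 ± 0.19 (n = 4 and 4, limma adjusted p = 0.00257), and within vehicle and clothianidin mice it was -1.51 and -1.59. Rbm34, a nucleolar protein, was 7.91, 7.91, 7.75 and 8.45 at 3 weeks and 9.43, 9.0, 9.21 and 9.09 at 10 weeks. Rbm34 rose by 1.18 ± 0.22 (adjusted p = 0.0106 by limma), 1.30 in vehicle and 1.05 in clothianidin mice.

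Hnrnpm, a splicing regulator, was 8.88, 9.19, 8.83 and 8.80 at 3 weeks and 10.10, 9.97, 9.92 and 10.07 at 10 weeks. It rose by 1.09 ± 0.19 (adjusted p = 0.00796 by limma), 1.00 in vehicle and 1.18 in clothianidin mice. Hnrnpll was 10.75, 9.79, 9.71 and 9.95 at 3 weeks and 9.35, 9.31, 8.38 and 8.87 at 10 weeks. Hnrnpll fell by 1.07 ± 0.24 on the log2 scale (limma adjusted p = 0.0203). It was -0.83 with adjusted p = 0.0532 without the first 3-week vehicle array, and its call was lost in 6 of the 8 fits with 1 array left out (adjusted p from 0.0119 to 0.0791). The calls of Rbm41, Rbm34 and Hnrnpm held in all 8. Without the 3 arrays of high choroid plexus markers, which leaves 5 arrays, none of the 4 passed (adjusted p from 0.133 to 0.176), and neither did any other cluster.

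The promoter windows of the 3 genes whose age call held in every fit without 1 array are shown, with Sf3a3 as an example of the ETS motif described further on. All are the 250 bases before the start, from RefSeq on GRCm38.p6, 5′ to 3′, with the same motifs in capitals. Hnrnpm is chr17:33685459-33685708, minus strand. Rbm34 is chr8:126971050-126971299, minus strand. Rbm41 is chrX:139998596-139998845, minus strand. Sf3a3 is chr4:124714611-124714860, plus strand.
Hnrnpm: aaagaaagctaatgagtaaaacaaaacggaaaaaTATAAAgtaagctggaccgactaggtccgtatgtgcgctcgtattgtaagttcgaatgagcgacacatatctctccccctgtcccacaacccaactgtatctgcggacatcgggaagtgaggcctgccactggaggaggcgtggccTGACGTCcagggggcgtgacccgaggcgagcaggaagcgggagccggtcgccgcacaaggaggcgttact
Rbm34: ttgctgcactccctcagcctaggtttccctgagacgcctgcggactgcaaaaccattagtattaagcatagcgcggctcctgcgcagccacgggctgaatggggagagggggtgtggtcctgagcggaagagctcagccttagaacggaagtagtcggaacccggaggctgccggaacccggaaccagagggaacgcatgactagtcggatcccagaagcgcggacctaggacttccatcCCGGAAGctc
Rbm41: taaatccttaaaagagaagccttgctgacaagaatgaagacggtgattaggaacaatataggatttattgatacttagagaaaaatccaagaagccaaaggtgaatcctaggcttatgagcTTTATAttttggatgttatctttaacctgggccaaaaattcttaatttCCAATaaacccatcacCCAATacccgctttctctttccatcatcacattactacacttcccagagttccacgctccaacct
Sf3a3: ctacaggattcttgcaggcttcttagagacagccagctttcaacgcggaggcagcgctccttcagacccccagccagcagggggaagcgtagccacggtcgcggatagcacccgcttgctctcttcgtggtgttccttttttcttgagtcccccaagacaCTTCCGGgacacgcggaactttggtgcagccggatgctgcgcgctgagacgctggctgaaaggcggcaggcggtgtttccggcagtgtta
Hnrnpm has a TATA box 216 and a CRE core 70 bases before the start. Rbm34 has an ETS motif 10 bases before it, and Sf3a3 has one 90 bases before it. Rbm41 has a TATA box 129 before and CCAAT boxes 81 and 65 before, and with 3 CpG and 37.6% GC it is unlike the other 3 windows, which have 17 to 19 CpG. TATA boxes were found in 12.4% of all windows and ETS motifs in 6.91%.

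By family, 9 of 9 SF3 genes were higher at 10 weeks (median 0.38) and 8 of 10 SR genes (median 0.40), but none of them passed. The hnRNP genes had 15 of 19 higher (median 0.21) and the RBM genes 19 of 35 (median 0.05, but -0.16 after quantile normalization and -0.02 after median centring). Of all clusters 56% were higher, with a median of 0.07, and of clusters at or above the median level, where most of the 74 genes lie, 66.5% with a median of 0.17. Without the first 3-week vehicle array the medians were 0.28 for SF3, 0.28 for SR, 0.07 for hnRNP and 0.00 for RBM, with 9 of 9 SF3 genes still higher. After quantile normalization 6 of 9 SF3 genes were higher with a median of 0.17, and 39 of the 74 genes were higher, with a median of 0.03, in place of 51 with a median of 0.18. The genes just outside the threshold, with adjusted p between 0.05 and 0.1, were 9. The share of all clusters in that range is not given here, so this count has no background. Some, named here after their values were seen, are Sf3b2 (0.83 ± 0.30, or 0.45 without the first 3-week vehicle array), Hnrnpd (0.77 ± 0.24), Rbm48 (0.69 ± 0.25), Rbm3 (-0.68 ± 0.23) and Rbm43 (-0.58). Rbm47 had a difference of -1.24 ± 0.49 that did not pass with all arrays, and it was -1.83 without the first 3-week vehicle array. That fit leaves the 3-week vehicle group only its second array, where choroid plexus markers were high and Rbm47 was 6.08. Rbm47 was below the lower quartile on 5 arrays. The part of choroid plexus tissue in its difference was not tested. The fall of the oligodendrocyte markers came with these differences, and its part in them was not tested.

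**Figure D5:**
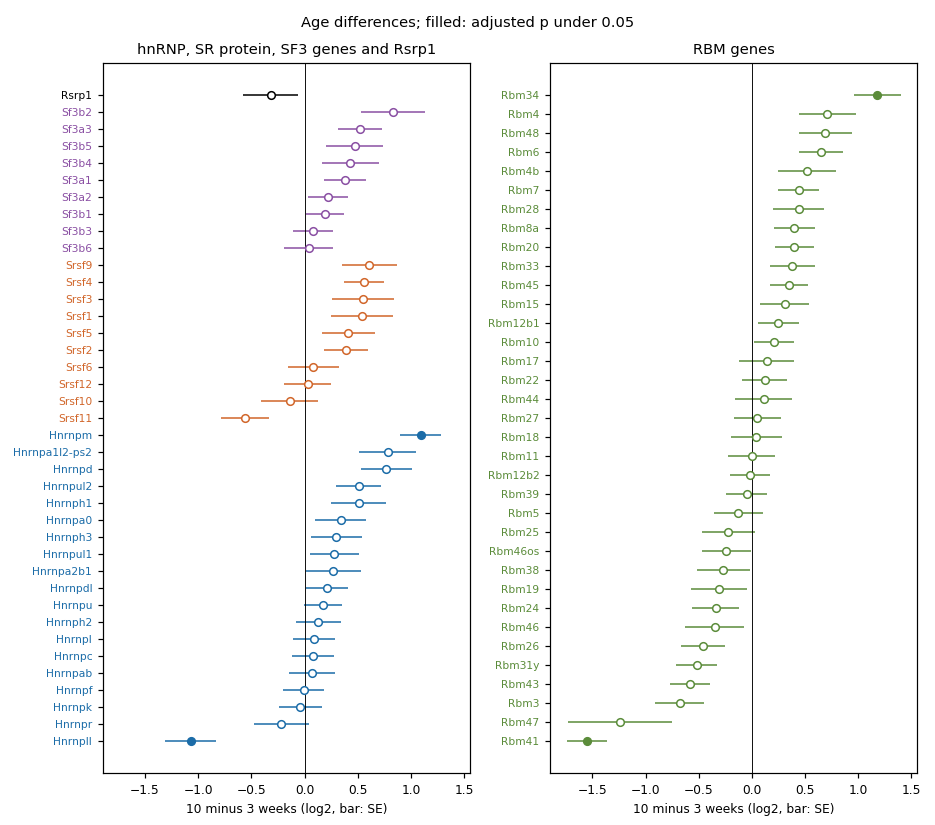
Difference between 10 and 3 weeks (x axis, log2; bars are standard errors, 4 arrays each) of every gene, by family; filled points have an adjusted p under 0.05. Only Hnrnpm (1.09) and Hnrnpll (-1.07) on the left and Rbm34 (1.18) and Rbm41 (-1.55) on the right are filled.

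The 4 related gene lists were measured for comparison. Of other spliceosome subunits 59 of 61 were measured, and 0 passed for exposure at 3 or 10 weeks. With age 3 rose and 0 fell (5.08% past the threshold, against the 11.2% of all clusters given above): U2af2, the U2AF subunit that binds the polypyrimidine tract (0.81 ± 0.23), the splicing helicase Dhx38 (1.06 ± 0.20) and Lsm6, a ring protein of the U6 particle (0.88 ± 0.25). Of SR protein kinases and SR-related proteins 28 of 28 were measured, with 0 past the threshold for exposure and 2 for age (7.14%), Son (0.73 ± 0.21) and Pnn (0.78 ± 0.19), both nuclear speckle proteins. Of neuronal splicing regulators 24 of 25 were measured, with 0 for exposure and 2 for age (8.33%), Celf5 (0.69 ± 0.18) and Elavl1 (0.73 ± 0.21). Each of these shares was below that of all clusters in the main fit, but each rests on few genes and was not tested. Of clusters at or above the median level, 10.3% passed for age. Of RBM-like genes outside the naming rule 10 of 10 were measured, with 0 for either. Without the first 3-week vehicle array, the age differences of these named genes ran from 0.61 (U2af2) to 1.13 (Dhx38).

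For exposure, the 2 largest differences of each list at each age did not pass the threshold either. Among the spliceosome subunits they were -0.91 ± 0.44 for Lsm3 and -0.78 ± 0.32 for Dhx15, a helicase that takes spliced complexes apart, at 3 weeks, and -0.79 ± 0.30 for Ncbp2, of the nuclear cap-binding complex, and 0.65 ± 0.33 for Snrpa1 at 10 weeks. Lsm3 was -0.15 without the first 3-week vehicle array. Among the SR-related genes they were 0.79 ± 0.27 for Clk2, an SR protein kinase, and 0.72 ± 0.27 for Srrm2 at 3 weeks. At 10 weeks they were -0.69 ± 0.30 for Luc7l3 and 0.66 ± 0.38 for Clk1. The group means of Clk2, 2.96 to 3.76, lay below the lower quartiles of the arrays (3.85 to 4.13), so its difference sits near the floor. Among the neuronal regulators at 3 weeks, Celf3 differed by 0.79 ± 0.29, Nova2 by 0.61 ± 0.34 and Elavl3 by 0.61 ± 0.28, and at 10 weeks Nova2 differed by 0.94 ± 0.34 and Khdrbs1 by 0.47 ± 0.28. Cirbp, the cold-inducible relative of Rbm3, differed by 0.91 ± 0.39 at 3 weeks and 0.74 ± 0.39 at 10 weeks, Rbms3 by 0.62 ± 0.28 at 3 weeks and Rbpms2 by -0.36 ± 0.36 at 10 weeks. At 10 weeks 20 of the 24 neuronal regulators were above 0, against 50.8% of all clusters and 58.9% of those at or above the median level, and 16 of 24 were without the 3 arrays of high choroid plexus markers. No test was made of that count.

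Promoter windows were found in RefSeq for 62 of the 74 genes. Where a gene had several windows, a motif in any of them was counted and the highest CpG count was taken. Their median CpG count was 19, against 6 over all 27025 genes with a window and 11 over the 17492 protein-coding ones. Of the genes with a window, 6 of 7 SF3 genes had the ETS motif (85.7%), against 10.2% of protein-coding genes. The GC box was found for 9 of 10 SR genes (90%), against 45.8%, and the CCAAT box for 12 of 17 hnRNP genes (70.6%), against 39.5%. Of 27 RBM genes, 4 had the ETS motif (14.8%) and 9 the GC box (33.3%). These shares describe letters in a window, and no test was made of them.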

How the data were processed

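Hippocampal RNA was hybridised to 8 whole-transcript arrays, 2 per group. The authors deposited log2 intensities for 22206 transcript clusters after RMA, per the submitters' processing notes; the version, and whether both ages were normalized together, are not given in the sources used here. Array number limits the precision. Symbols came from the platform annotation: 19572 clusters had 1 symbol, 0 had several and 2634 had none. Groups came from the sample labels. limma (3.58.1, R 4.3.3) was fitted to all clusters in the 4 groups, with 4 residual degrees of freedom and no covariate, two-sided, with Benjamini-Hochberg adjustment over all clusters and a threshold of 0.05. Alternatives were other priors, array weights, other scalings, a level filter, the mean of a gene's rows, only the groups compared, a replicate block, each array left out, and a looser threshold of 0.1. Leaving out the 3 arrays of high choroid plexus markers was added after seeing the data. The procedure was tested on simulated data. Replicate numbers were not used to pair the arrays in the main fit. Correlations of replicate deviations between groups ran from -0.27 to 0.14, which cannot show whether the arrays were paired. The genes named were drawn from those past the threshold, the 2 largest in each direction per family and comparison, and 18 chosen genes, of which Hnrnpa1 and Srsf7 were not analysed here. Of the other lists, genes past the threshold or the 2 largest are named. The genes, lists and rules were chosen with earlier results of these data known. Promoter windows and RefSeq symbols came from RefSeq tables on GRCm38.p6; all 74 symbols matched.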

Additional observations from a re-analysis of the deposited data

How the results depend on the processing

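With 2 arrays a group and 4 residual degrees of freedom, the 4 exposure comparisons had 0 genes past the threshold under each alternative run. For age, the count of 4 became 7 after quantile normalization, which added Srsf11, Rbm3 and Rbm43, 13 at an adjusted p under 0.1, and 0 without the 3 arrays of high choroid plexus markers, where only 1 residual degree of freedom was left. With 1 array left out, an arm of 1 array being assumed to vary like the other groups, it was 3 to 7. The deviations of replicates with the same number did not go together between groups, which cannot show whether the arrays were paired. With the replicate number as a block, the age count was 4 (5.41%, against 8.12% of all clusters) and no call changed. The 7 genes after quantile normalization were 9.46% of the 74, against 9.23% of all clusters. The share of all clusters also moved with the arrays kept, so counts without 1 array cannot be set beside the main share. After quantile normalization the share of the 74 genes was not below that of all clusters, so no shortfall is read from the main fit. For an adjusted p under 0.1 the share of all clusters is not given here. No median below has a test, and the cause of each move was not tested.

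Without the 3 arrays of high choroid plexus markers, the median 3-week exposure difference was 0.42 for SR, -0.02 for RBM and 0.03 for SF3 genes, the 10-week one was -0.09 for SF3, and the change between ages was -0.51 for hnRNP and -0.54 for SR genes. The median age difference was then 0.15 for RBM and 0.25 for SF3. After quantile normalization it was 0.03 for the 74 genes, -0.16 for RBM and 0.17 for SF3, and the 10-week difference of Hnrnpu was 0.00. After median centring the age median was -0.02 for RBM and 0.32 for SF3. With dimmer clusters left out it was 0.13 for RBM.

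With 1 array left out, the 3-week median ranged from -0.10 to 0.12 for the 74 genes, 0.07 to 0.42 for hnRNP, -0.25 to 0.25 for SR, -0.19 to -0.04 for RBM and 0.08 to 0.25 for SF3. The 10-week median ranged from -0.08 to 0.11 for the 74 genes, -0.15 to 0.13 for hnRNP, -0.22 to 0.39 for SR and -0.09 to 0.11 for SF3. The change between ages ranged from -0.42 to -0.06 for hnRNP, -0.23 to 0.58 for SR and -0.35 to -0.04 for SF3. The age median ranged from 0.07 to 0.27 for hnRNP, -0.01 to 0.12 for RBM and 0.16 to 0.43 for SF3. Signs turned for Hnrnpll at 3 weeks (-0.92 to 0.04) and for the change of Rsrp1 between ages (-0.37 to 0.80), and the 3-week difference of Rbm17 ranged from 0.00 to 1.19.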
